A study of Bos taurus with 16 samples.

Results

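The genes described here are 8 germline and meiosis genes: BRDT, RAD21L1, SYCP3, STRA8, DAZL, DDX4, MAEL and TDRD1. They were picked by gene name from 3 expression tables, with their levels and their changes under LY2955303 (LY), an inhibitor of the retinoic acid receptor RARγ, already in view, so their own changes are given as a description with no test. All 8 were found in each table, among 38959 genes in the first blastocyst table, 37429 in the second and 28303 in the table of bovine embryonic stem cells (bESCs). The blastocysts were wild-type bovine IVF embryos of day 8, sequenced 1 embryo per library. Of the first table's blastocysts 3 received the DMSO vehicle (DMSO) and 3 received 10 μM LY from the 2-cell stage (LY10). Of the second table's blastocysts 2 received LY from the 2-cell stage (cell2_LY), 2 received it from the 16-cell stage (cell16_LY), and 2 were vehicle controls (LY_DMSO), against which both were compared. The labels give no dose for cell2_LY and cell16_LY. The embryo media of all blastocyst groups held LIF, FGF2 and IGF1. The bESCs grew on mouse embryonic fibroblast feeders in TiFX medium, without LY (bESC_tifx, n = 2) or with LY (bESC_LY, n = 2). The labels of these libraries give no dose, duration or vehicle and name the control by its medium alone, whereas the bESC colonies of the same study received 10 μM LY for 3 days against a DMSO control. The replicates are called biological, and the sources do not say whether the bESC libraries came from separate cultures.

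Germ cells make sperm and eggs through meiosis, in which homologous chromosomes pair, are held along their length by the synaptonemal complex and exchange DNA. Retinoic acid is best known in the gonad for starting this programme, through STRA8. A second germline task is the silencing of transposons by small piRNAs, which is carried out by helicases and Tudor-domain proteins in granules beside the nucleus. Most of these genes are silent in somatic tissues, and early embryos can carry some of their transcripts from the oocyte or switch them on themselves.

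Each blastocyst library held between 7905768 and 17343140 reads on genes, and each bESC library between 29055323 and 31230432. A normalized count here is a gene's reads scaled to the mean library size of its table. A gene with 0 reads may hold up to 3 reads by counting error, or up to 4.09 normalized counts per blastocyst and 3.18 per bESC library. The counting intervals below are for reads summed over the libraries of a group. They and these limits cover counting error only and not the spread between libraries, and reads were counted without molecular identifiers. RARG, the gene of the receptor that LY inhibits, had between 0 and 4 reads in each blastocyst and between 1042 and 1797 in each bESC library. The blastocysts also differed in reads from the Y chromosome. The Y genes DDX3Y, USP9Y and ZFY had 0 reads together in 6 of the 12 blastocysts and between 1830 and 3545 in the other 6, which were DMSO replicate 3, LY10 replicate 1, LY_DMSO replicate 1, both cell2_LY blastocysts and cell16_LY replicate 2. None of the 8 genes lies on the X or the Y chromosome.

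BRDT lies on chromosome 3 (51385725 to 51443014, minus strand) of the bovine assembly ARS-UCD2.0, and MAEL lies on the same chromosome (1829686 to 1886294, minus strand). RAD21L1 lies on chromosome 13 (59868967 to 59918072, minus strand), SYCP3 on chromosome 5 (65541079 to 65548189, minus strand) and STRA8 on chromosome 4 (98860168 to 98885232, plus strand). DAZL lies on chromosome 1 (153640071 to 153663068, minus strand), DDX4 on chromosome 20 (23358254 to 23424672, minus strand) and TDRD1 on chromosome 26 (34641574 to 34697307, plus strand). SYCP3 shares 437 bases at its 3′ end with CHPT1 on the other strand, and the sources used here do not say whether reads were counted by strand. CHPT1 had between 3.70 and 299 normalized counts in the blastocysts, against at least 416 for SYCP3. The bESC table used other gene models. Its BRDT model counts 1050 bases against 5272 in the blastocyst tables, and its RAD21L1 model 1668 bases against 13506.

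In control blastocysts 6 of the 8 genes in the DMSO group and 5 of the 8 in LY_DMSO had a mean FPKM (fragments per kilobase of gene, scaled to library size) of at least 1, a level that 31.0% and 29.3% of all listed genes reached. SYCP3, which builds the lateral elements of the synaptonemal complex, was the highest by FPKM, at 206 ± 38.2 (SD, n = 3) in DMSO and 116 ± 34.8 (n = 2) in LY_DMSO. Its DMSO level was above that of 97.8% of the genes with any read. MAEL followed at 56.8 ± 24.8 FPKM in DMSO and 70.9 ± 11.1 in LY_DMSO, and then DDX4 at 28.2 ± 25.0 and 34.8 ± 10.3. BRDT stood at 13.1 ± 8.68 FPKM in DMSO and 9.58 ± 0.743 in LY_DMSO, near TDRD1 at 5.66 ± 1.24 and 12 ± 5.76. RAD21L1 and STRA8 were low, at 0.811 and 0.200 FPKM in DMSO. In DMSO the ranges of neighbouring genes overlapped from MAEL down to TDRD1, whereas SYCP3 above them and RAD21L1 and STRA8 below them stood clear of the next gene.

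**Figure D1:**
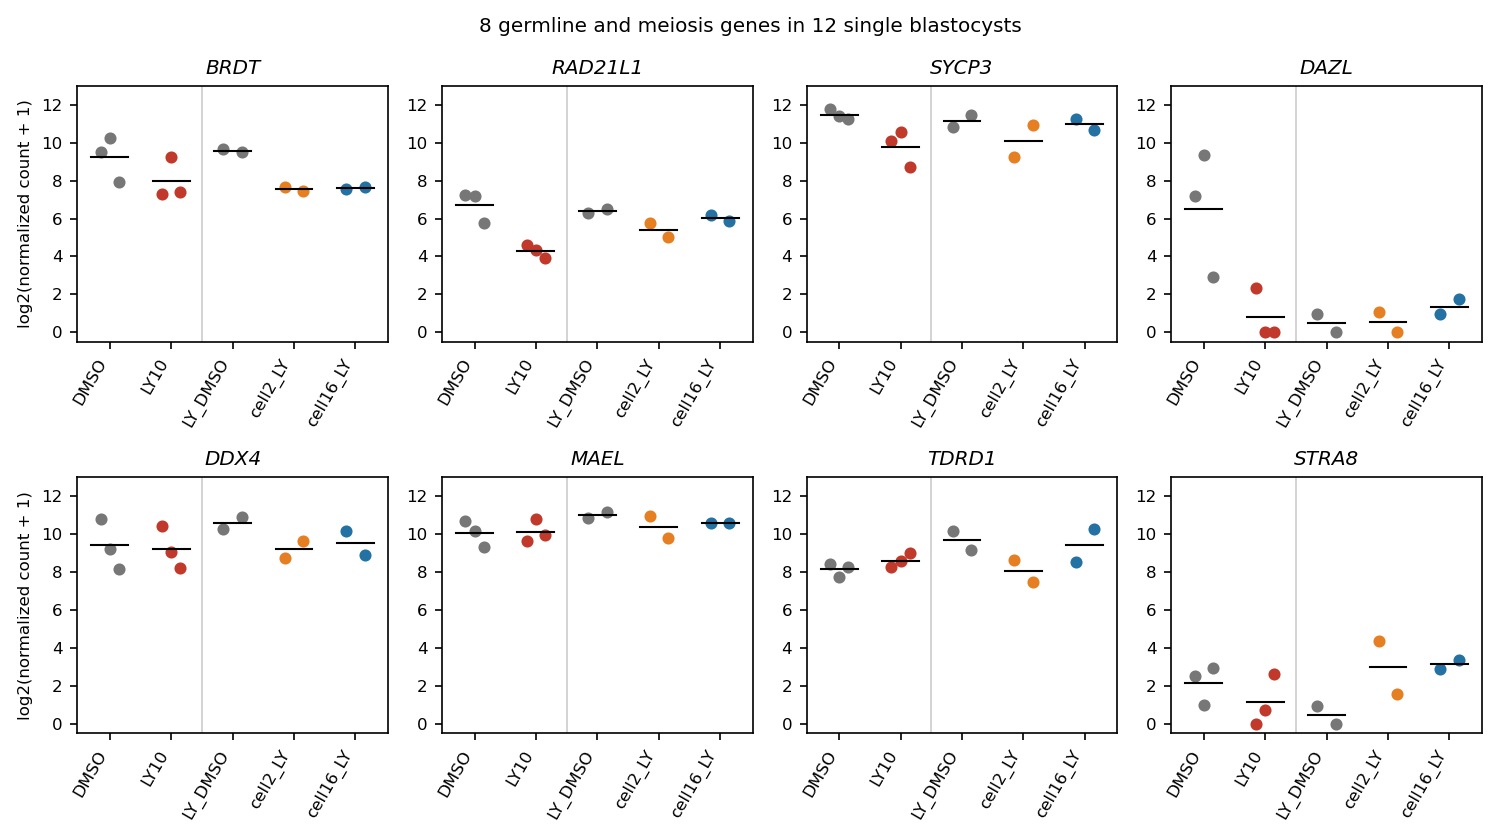
Each panel plots 1 gene as log2(normalized count + 1) on the vertical axis, with 1 point per blastocyst and a bar at the group mean (grey controls, coloured LY groups, and a line between the 2 tables). BRDT lies between 178 and 204 normalized counts in the 4 LY blastocysts of the second table and at 813 and 728 in its controls, while DAZL is high in 2 DMSO blastocysts only.

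BRDT encodes the germline member of the BET family, whose bromodomains bind acetylated histones, and it is needed in the testis for meiosis and for the repackaging of sperm chromatin. BRDT in the second table had 813 and 728 normalized counts in LY_DMSO, 204 and 178 in cell2_LY, and 189.6 and 199 in cell16_LY. All 4 LY blastocysts lay well below both controls, and the 2 LY groups overlapped each other. The log2 fold change was −2.01 (SE 0.30) in cell2_LY and −1.98 (SE 0.30) in cell16_LY, and leaving out any 1 blastocyst kept it between −2.11 and −1.90. In the first table the counts were 730.5, 1223 and 247 in DMSO against 154, 609 and 168 in LY10. Here the groups overlapped, since LY10 replicate 2 lay above DMSO replicate 3, and the log2 fold change was −1.26 (SE 0.67). It was −1.91 without DMSO replicate 3 and −0.76 without DMSO replicate 2. Among the blastocysts without Y reads, which were DMSO replicates 1 and 2 and LY10 replicates 2 and 3, the mean log2 difference was −1.56, and between the pair with Y reads it was −0.68. For the second table the differences within blastocysts of 1 kind, each with 1 or 2 blastocysts a group, lay between −2.09 and −1.94.

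BRD2, a BET gene that acts in most somatic cells, was read beside BRDT. BRD2 had 1031 and 942 normalized counts in LY_DMSO and rose to 2026 and 1937 in cell2_LY (log2 fold change 1.01, SE 0.25, limma adjusted p = 0.0814), in the blastocysts where BRDT was lower. The call passed the study's threshold, an unadjusted p under 0.05 with an absolute log2 fold change above 1, and missed an adjusted p of 0.05. It was lost without LY_DMSO replicate 2 (0.94). BRD2 did not pass the threshold in LY10 (0.43, SE 0.26) or in cell16_LY (0.53, SE 0.25). Of the 6 listed somatic relatives of these genes, cohesin genes included, 2 had a positive and 4 a negative log2 fold change in cell2_LY. BRD2 was the 1 called higher there, and 2 were called lower.

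SYCP3 and RAD21L1 both build the axis of meiotic chromosomes, RAD21L1 as a meiotic form of the cohesin kleisin RAD21. SYCP3 had 3506, 2747 and 2466 normalized counts in DMSO and 1096, 1519 and 416 in LY10, so that every LY10 blastocyst lay below every control (log2 fold change −1.70, SE 0.43). RAD21L1 had 152, 144 and 53.6 in DMSO and 23.2, 19.4 and 14.2 in LY10, again with no overlap (−2.44, SE 0.53). Both were lower in LY10 among blastocysts with and without Y reads, by −1.17 and −1.96 for SYCP3 and by −1.18 and −3.08 for RAD21L1. The somatic kleisin RAD21 was at 1434, 1484 and 1778 normalized counts in DMSO and at 3043, 2117 and 2095 in LY10, and did not pass the threshold (0.61, SE 0.23).

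In the second table the same genes were less clearly separated. RAD21L1 had 78.8 and 89.6 normalized counts in LY_DMSO, 52.4 and 31.6 in cell2_LY, and 71.6 and 58.3 in cell16_LY. Its log2 fold change was −1.03 (SE 0.51) in cell2_LY, where it shrank to −0.67 without cell2_LY replicate 2, and −0.37 (SE 0.51) in cell16_LY. SYCP3 had 1853 and 2845 in LY_DMSO, 607 and 1930.3 in cell2_LY, and 2459.8 and 1633 in cell16_LY. Both LY groups overlapped the controls for SYCP3, with log2 fold changes of −1.08 (SE 0.51) and −0.20 (SE 0.51). The first lay between −1.92 and −0.25, without cell2_LY replicate 2 and without replicate 1, and the second became 0.11 without LY_DMSO replicate 2.

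DAZL encodes an RNA-binding protein that licenses germ cells to develop, and STRA8 is the retinoic acid target that opens meiosis. DAZL had 144, 653 and 6.56 normalized counts in DMSO and 4.09, 0 and 0 in LY10. That is 847 reads against 3, a ratio of 264 with a 95% counting interval from 90.0 to 1282 (exact, conditional on the sum of reads), and 841 of the 847 reads came from DMSO replicates 1 and 2. DMSO replicate 3, the control with Y reads, lay within 3 reads of LY10 replicate 1. DAZL in the second table had 1 read or none in each control and at most 2 reads in any LY blastocyst, so a difference was not detectable at this depth. STRA8 was low everywhere, with at most 19.7 normalized counts in any library. It had 4.66, 0.995 and 6.56 normalized counts in DMSO and 0, 0.67 and 5.18 in LY10, and was filtered out of the blastocyst fits by its low mean. For the second table, LY_DMSO held 1 STRA8 read in all, cell2_LY held 18 and 2, and cell16_LY held 7 and 8. The ratio of LY_DMSO to cell2_LY was 0.0446 (95% counting interval 0.00108 to 0.279) and that of LY_DMSO to cell16_LY was 0.0596 (0.00142 to 0.388). These intervals leave out the spread between blastocysts, and 18 of the 20 cell2_LY reads came from replicate 1, so no difference is read from them.

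DDX4, MAEL and TDRD1 belong to the granules of the piRNA pathway, DDX4 as the Vasa helicase, TDRD1 as a Tudor-domain scaffold and MAEL as a factor in piRNA production and transposon silencing. None of the 3 separated LY10 from its control. DDX4 had 1806, 605 and 289.9 normalized counts in DMSO and 1362, 536 and 293 in LY10 (log2 fold change −0.19, SE 0.71, and 0.51 without DMSO replicate 1). MAEL had 1653, 1171 and 645 in DMSO and 804, 1774 and 982 in LY10 (0.05, SE 0.40). TDRD1 had 338, 217 and 304 in DMSO and 307, 379 and 514 in LY10 (0.47, SE 0.30). For DDX4 the LY10 difference was −1.40 among blastocysts without Y reads and 2.23 between the pair with them.

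In the second table all 3 were lower on average in the LY groups. DDX4 had 1260.2 and 1925 normalized counts in LY_DMSO, 424 and 815 in cell2_LY, and 1151 and 474 in cell16_LY, with every LY blastocyst below both controls. Its log2 fold change was −1.40 (SE 0.48) in cell2_LY and −1.08 (SE 0.48) in cell16_LY, and ranged from −1.88 to −0.93 and from −1.72 to −0.44 with 1 blastocyst left out, the smallest changes coming without replicate 1 of cell2_LY and without replicate 2 of cell16_LY. TDRD1 had 1164 and 574 in LY_DMSO, 392.04 and 176 in cell2_LY, and 374 and 1249 in cell16_LY. It was below both controls in cell2_LY but not in cell16_LY (−1.64, SE 0.62, and −1.06 without cell2_LY replicate 2), and its value in cell16_LY (−0.26, SE 0.62) changed sign to 0.61 without cell16_LY replicate 1. MAEL had 1838 and 2295 in LY_DMSO, 1968 and 883 in cell2_LY, and 1530.2 and 1546 in cell16_LY. Its log2 fold changes were the smallest of the 3 in cell2_LY, at −0.64 (SE 0.37), and stood at −0.42 (SE 0.37) in cell16_LY. The value in cell2_LY was −1.22 without cell2_LY replicate 1 and −0.06 without replicate 2.

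**Figure D2:**
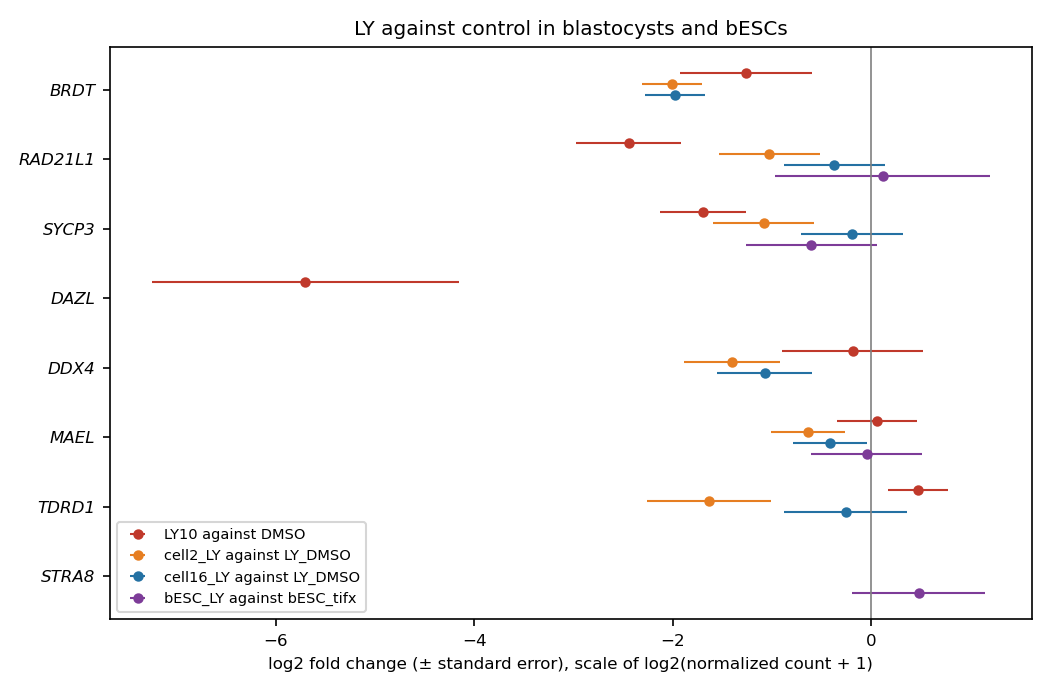
Points give the log2 fold change of each gene against its control on the scale of log2(normalized count + 1), and bars its standard error, with 1 colour per comparison and no point where a gene was too low to be fitted. BRDT lies at −2.01 and −1.98 in the second blastocyst table with bars of 0.30, and the widest bar is that of DAZL in LY10.

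Counted over the genes that passed the filter of a mean of 10 normalized counts, RAD21L1 and SYCP3 had every LY10 blastocyst below every DMSO blastocyst, as had 14.4% of all genes tested. DAZL did too, but it passed the filter only through its DMSO values and is left out of that count. In cell2_LY 4 of 6 (BRDT, RAD21L1, DDX4 and TDRD1) lay below both controls, against 26.9% of all genes, and in cell16_LY 4 of 6 (BRDT, RAD21L1, DDX4 and MAEL), against 22.0%. No fitted gene of the set lay above its control without overlap in these 3 comparisons, while 13.8%, 26.9% and 20.9% of all genes did. STRA8, too low to be fitted, lay above both controls in both LY groups of the second table. It had 0.927 and 0 normalized counts in LY_DMSO, 19.7 and 1.97 in cell2_LY, and 6.51 and 9.33 in cell16_LY. DAZL, also not fitted there, did so in cell16_LY with 1 and 2 reads. BRDT, RAD21L1 and DDX4 had all 4 LY blastocysts of the second table below both controls, which 11.9% of all genes also had, and 11.2% had the reverse. These comparisons were among those in view when the genes were picked, and cell2_LY and cell16_LY share their controls. The median log2 fold change of the 6 fitted genes of the set was −1.24 in cell2_LY and −0.40 in cell16_LY, beside 0.00 and −0.01 for all genes. In a whole blastocyst, fewer cells of a type and less RNA per cell cannot be told apart.

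Between the 2 start stages BRDT differed by 0.03 (SE 0.30) on the log2 scale, cell16_LY minus cell2_LY. RAD21L1 differed by 0.65 (SE 0.51) and was the 1 gene of the 6 fitted whose cell16_LY blastocysts both lay above both cell2_LY blastocysts, as did 28.2% of all genes, with 26.3% below. The largest difference, that of TDRD1 at 1.38 (SE 0.62), came with overlapping groups and fell to 0.51 without cell16_LY replicate 2. SYCP3 differed by 0.89, DDX4 by 0.33 and MAEL by 0.22, each with overlap. These rested on single blastocysts, since SYCP3 stood at 0.05 without cell2_LY replicate 1, DDX4 turned to −0.31 without cell16_LY replicate 1 and MAEL turned to −0.36 without cell2_LY replicate 2. RAD21L1 lay between 0.30 and 1.01, without cell2_LY replicate 2 and without replicate 1.

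In bESCs the set was almost silent. SYCP3 was the highest at 1.46 ± 0.897 FPKM in bESC_tifx and 0.896 ± 0.361 in bESC_LY, and it was the only 1 of the 8 with a mean of at least 1 FPKM in bESC_tifx, a level that 48.7% of listed genes reached. In normalized counts it had 75.2 and 29.7 in bESC_tifx and 41.3 and 23 in bESC_LY. DAZL had 0 reads in all 4 libraries, which allows up to 3.18 normalized counts in each, and DDX4 had 0 reads in 3 of them and 2 reads in bESC_LY replicate 3. TDRD1 had 13 reads in bESC_tifx replicate 3, 2 in bESC_LY replicate 2 and 0 in the others. The control blastocysts of the second table were higher than bESC_tifx in mean FPKM for 7 of the 8 genes, and by at least 10 times for SYCP3, MAEL, DDX4, TDRD1 and BRDT. The tables were normalized separately and differ in gene models, so these are levels side by side with no test. RAD21L1 was close to equal per length, at 0.409 FPKM in LY_DMSO and 0.337 in bESC_tifx, but its gene model is much shorter in the bESC table, and it had 182 reads in the 2 LY_DMSO libraries against 34 in the 2 deeper bESC_tifx libraries.

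Under LY in bESCs, 4 of the 8 genes passed the filter. Their log2 fold changes were 0.11 (SE 1.08) for RAD21L1, −0.60 (SE 0.66) for SYCP3, 0.48 (SE 0.67) for STRA8 and −0.05 (SE 0.56) for MAEL. These standard errors take no account of the replicate number. With 1 library left out, RAD21L1 ranged from −1.06 to 1.28 and SYCP3 from −1.26 to 0.05. RAD21L1 had 25.8 and 8.63 normalized counts in bESC_tifx and 38.1 and 6.70 in bESC_LY, so the 2 replicate numbers differed more than the treatments. STRA8 had 9.27 and 9.58 against 10.6 and 17.2, the 1 gene of the 4 with no overlap, as 6.83% of all genes were higher without overlap and 7.36% lower. BRDT was too low to be fitted, with 4 and 5 reads in bESC_tifx and 9 and 15 in bESC_LY. The ratio of bESC_tifx to bESC_LY in BRDT reads was 0.371 (95% counting interval 0.152 to 0.826). MAEL had 20.6 and 27.8 normalized counts in bESC_tifx and 18 and 29.7 in bESC_LY.

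**Figure D3:**
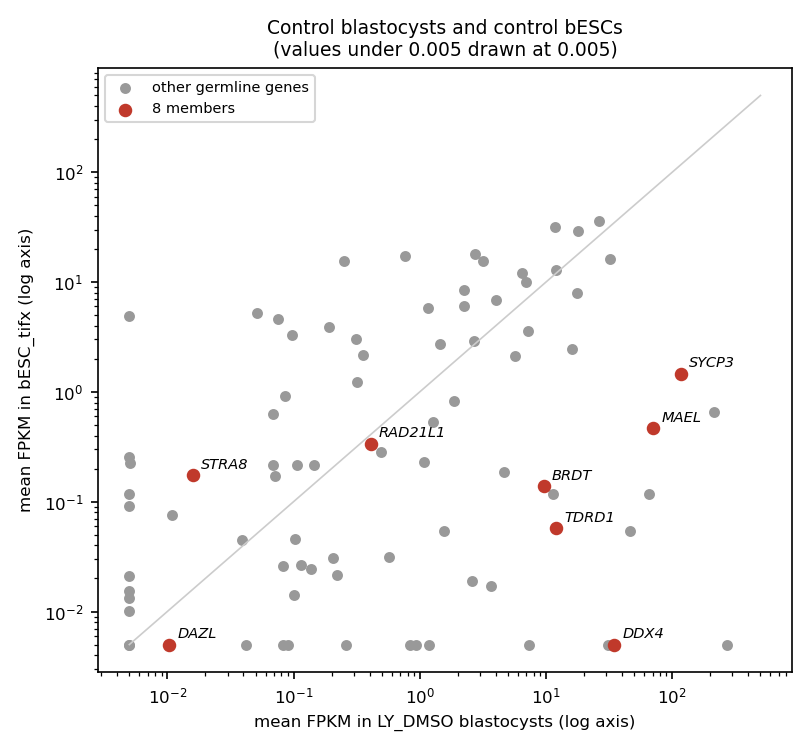
Each point is 1 gene, with its mean FPKM in LY_DMSO blastocysts on the horizontal log axis and in bESC_tifx on the vertical log axis, and values under 0.005 drawn at 0.005 (red, the 8 genes; grey, 77 other germline genes found in all tables). SYCP3, MAEL, DDX4, TDRD1 and BRDT lie far below the line of equal level, RAD21L1, whose gene model is longer in the blastocyst tables, lies near it, and STRA8 lies above it.

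The rest of the germline programme was followed with a list of 85 genes that leaves out the 8, of which 83 were found in each blastocyst table and 77 in the bESC table. This list, too, was chosen with earlier results of these data known, so its calls are no independent support. By mean FPKM over the 12 blastocysts the highest were GTSF1 (255), a piRNA factor, DPPA3 (161), which protects maternal methylation marks, TEX12 (89.2) of the synaptonemal complex, ASZ1 (41.3) of the piRNA granules and SPATA22 (40.7) of meiotic recombination. In bESCs GTSF1 and SPATA22 had 0 reads, and the highest were TRIP13 (37.0), the pluripotency and germ cell regulator PRDM14 (32.1), TDRKH (28.6), ZCWPW1 (16.4) and the recombinase gene DMC1 (16.2). Of the 77 genes, 12 had at least 10 times the bESC_tifx FPKM in LY_DMSO and 7 had the reverse.

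In LY10 10 of 52 tested genes of this list fell and 2 rose at the study's threshold, beside 8.51% and 6.2% of all genes, and the list's median log2 fold change was −0.80 against −0.05 over all genes. No gene of the list had a limma adjusted p under 0.05, while 15 had an unadjusted p under 0.05. Of the 10 that fell, 6 (SYCP1, SYCE3, FKBP6, TAF7L, TDRD5 and SMC1B) had an LY10 mean under 10 and passed the filter only through their DMSO values, so the list's count and median lean on such genes. The other 4 were GTSF1, BOLL, TEX12 and REC114. Without DMSO replicate 1 or DMSO replicate 2 only 3 genes of the list fell, and without DMSO replicate 3 20 did. Of the genes with a mean of at least 50 normalized counts, TEX12, a central element protein of the complex that SYCP3 builds, fell from 3619, 4740.2 and 1996 normalized counts to 924, 471 and 874. Its log2 fold change was −2.16 (SE 0.38, limma adjusted p = 0.0783). GTSF1 fell from 3791, 4946 and 3058 to 1612, 1097 and 1946 (−1.35, SE 0.28, limma adjusted p = 0.0783). Both passed the threshold in every alternative for LY10. In the second table TEX12 passed it in neither LY group. It had 1351 to 1854 normalized counts in LY_DMSO, 987 to 1123 in cell2_LY and 1267 to 1587 in cell16_LY. GTSF1 passed it in cell2_LY (−1.05, SE 0.42) but not in cell16_LY. SMC1B, the meiotic partner of RAD21L1 in cohesin, fell from 55.1, 199.95 and 17.5 to 1.36, 16.8 and 10.4 (−2.92, SE 1.05, limma adjusted p = 0.153), and it missed the threshold without DMSO replicate 1, DMSO replicate 2 or LY10 replicate 1. REC114, which helps to start meiotic DNA breaks, fell with a log2 fold change of −1.35 (SE 0.43) and missed the threshold without DMSO replicate 1 (−1.03) or LY10 replicate 1 (−0.98).

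Both genes of the list that rose in LY10 belong to its recombination genes. TRIP13, an ATPase of the meiotic axis that also serves the mitotic checkpoint, rose from 263, 219.8 and 502 normalized counts to 1010.4, 829.9 and 738 (1.47, SE 0.34, limma adjusted p = 0.0789). PSMC3IP, a partner of the recombinases, rose from 46.6, 49.7 and 114 to 153, 257 and 126 (1.39, SE 0.46, limma adjusted p = 0.130), a call lost without LY10 replicate 2.

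In cell2_LY 8 of 50 tested genes of the list fell and 1 rose, beside 8.34% and 8.71% of all genes, with a list median of −0.67 against 0.00. TEX11, which fell, had a cell2_LY mean of 7.17, and HFM1, which rose, had an LY_DMSO mean of 7.40. Both means lie under the filter's 10, so these 2 calls lean on the group where the gene was high. The number that fell ranged from 4 without LY_DMSO replicate 2 to 14 without LY_DMSO replicate 1. No adjusted p was under 0.05, and 9 unadjusted ones were. Here 4 of the 13 piRNA genes fell, among them ASZ1 from 1369.5 and 1077 normalized counts to 543 and 443 (−1.31, SE 0.28, limma adjusted p = 0.0743). HENMT1, which methylates the 3′ ends of piRNAs, fell from 285 and 688 to 77.5 and 113 (−2.23, SE 0.50, limma adjusted p = 0.0781). DPPA3 fell from 5037 and 5859 to 2139 and 1516 (−1.59, SE 0.30, limma adjusted p = 0.0711). TDRKH, a Tudor-domain partner of the PIWI proteins, fell from 390.1 and 335 to 83.0 and 182 (−1.55, SE 0.42), a call lost without cell2_LY replicate 1 (−0.98). HFM1, a meiotic helicase and the single gene that rose, is named after its values were seen and went from 1.85 and 12.9 to 60.1 and 40.4 normalized counts.

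TEX11, an X-linked meiosis gene, fell in cell2_LY from 31.5 and 589.6 normalized counts to 5.46 and 8.88, with a log2 fold change of −4.12 (SE 1.29, limma adjusted p = 0.114). The high control was LY_DMSO replicate 2, without Y reads, while both cell2_LY blastocysts had Y reads. Without that control the log2 fold change was −2.02 and the call was lost, as it was without cell2_LY replicate 1 (−3.81).

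In cell16_LY no gene of the list rose and 1 of 50 fell, beside 3.25% and 1.97% of all genes, with a list median of −0.39 against −0.01. No adjusted p was under 0.05 and 3 unadjusted ones were. The gene was SYCP2, the lateral element partner of SYCP3, at 149 and 761 normalized counts in LY_DMSO and 125 and 98 in cell16_LY (−1.60, SE 0.68, limma adjusted p = 0.645), and the call rested on LY_DMSO replicate 2 (−0.43 without it). Without LY_DMSO replicate 1, 9 genes fell. Compared directly with cell2_LY, ASZ1 and HENMT1 were higher in cell16_LY and REC114 was lower, beside 5.58% of all genes higher and 5.77% lower. In bESC_LY none of the 44 tested genes of the list passed the threshold and none had an unadjusted p under 0.05. The list median was −0.02 against −0.01, and 0.0375% of all genes passed in each direction. This fit took no account of the replicate number. With that number added as a block, 69 of all genes rose and 77 fell, and 116 had a limma adjusted p under 0.05. The list's calls with the block are given below.

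**Figure D4:**
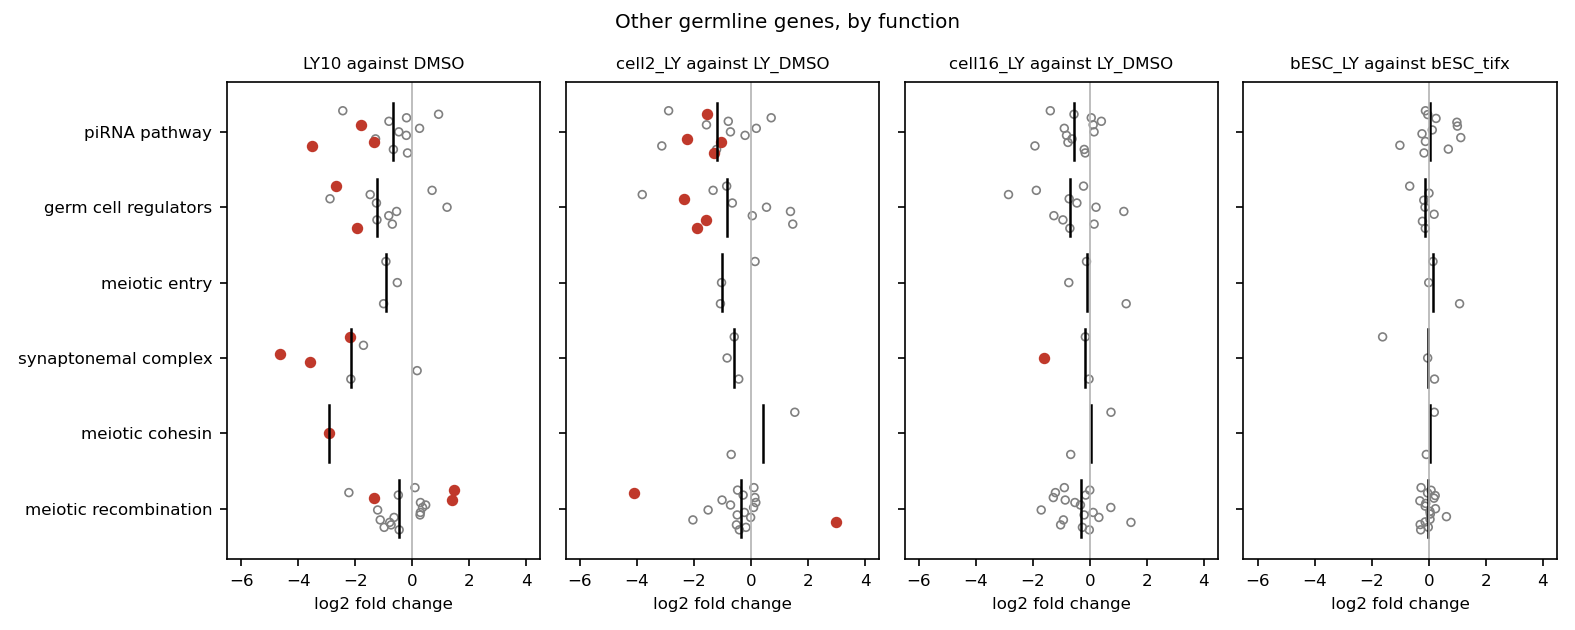
Each point is 1 gene of the list of other germline genes, placed by log2 fold change against control and grouped by function, with filled red points past the study's threshold and a bar at the median of each group. In LY10 10 filled points lie below 0 and 2 above, and the bESC points lie between −1.62 and 1.12 with none filled.

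Markers of other cell types were read beside these results. Of 16 oocyte markers, between 7 and 14 had a read in each blastocyst, and their summed normalized count was 174 to 861 in DMSO, 138 to 240 in LY10, 310 to 329 in LY_DMSO, 175 to 278 in cell2_LY and 164 to 182 in cell16_LY. The sum was led in every blastocyst by OOEP, an oocyte protein, which had 375, 697 and 117 normalized counts in the 3 DMSO blastocysts. BRDT and DAZL had the same order of replicates there, and SYCP3, RAD21L1, STRA8, DDX4, MAEL and TDRD1 did not. Of 7 sperm markers, up to 4 had a read in a blastocyst, and the sum was 76.6 to 209 in DMSO, 0 to 10.4 in LY10, 34.2 to 38.9 in LY_DMSO, 5.46 to 33.5 in cell2_LY and 4.65 to 5.83 in cell16_LY. TNP2, a transition protein of sperm chromatin, had 28.7 to 145 normalized counts in DMSO and at most 6.47 in LY10. PRM1, a protamine, had 152 reads in DMSO and 0 in LY10, but the lowest DMSO blastocyst also had 0. LY_DMSO and cell16_LY held 1 PRM1 read each and cell2_LY held 0. The oocyte sum was lower in LY10 through OOEP. Without OOEP the oocyte markers summed to 38.8, 164 and 56.9 in DMSO and to 62.7, 104 and 93.2 in LY10, with overlap, and 2 of the 3 tested there had a positive log2 fold change (median 0.39). The part of these markers in the results was not tested.

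Markers of the blastocyst's own lineages and of fibroblasts also differed between LY and control. The 3 epiblast markers summed to 1955 to 3135 normalized counts in DMSO and 4252 to 8883 in LY10, with POU5F1, the pluripotency factor, at 1896 to 2841 and 3789 to 7052. In the second table their sums overlapped, at 4773 to 7820 in LY_DMSO, 4918 to 6896 in cell2_LY and 4780 to 5307 in cell16_LY. None passed the threshold there, and all 3 had a negative log2 fold change in cell16_LY. The hypoblast markers were mixed, and 2 of the 3 tested had a negative log2 fold change in LY10. PDGFRA had 45.8 to 371 in DMSO and 926 to 4099 in LY10, whereas GATA6 had 2386 to 3960 and 1703 to 2111. Both went the other way in cell2_LY. PDGFRA had 2283 to 7248 in LY_DMSO and 562 to 1814 in cell2_LY, and GATA6 had 3091 to 3225 and 4670 to 4836. In cell16_LY GATA6 was below LY_DMSO, as in LY10, at 2015 to 2889. PDGFRA had 1066 to 3449 in cell16_LY and overlapped LY_DMSO. The fibroblast markers summed to 726 to 2262 in DMSO and 260 to 403 in LY10, and 2 of the 5 tested fell while none rose. None of the 5 tested passed the threshold in cell2_LY or in cell16_LY. In cell2_LY all 6 trophectoderm markers had a positive log2 fold change and 2 rose. GATA2 had 447 to 839 normalized counts in LY_DMSO and 2251 to 2637 in cell2_LY, and CDX2, the trophectoderm factor, had 8.34 to 12 and 71 to 78.6. In cell16_LY all 6 had a positive log2 fold change and none passed the threshold. In LY10 4 of the 6 had a positive and 2 a negative log2 fold change, and none passed. SOX17, another hypoblast marker, had at most 3.98 normalized counts in the DMSO, LY10, LY_DMSO and cell2_LY blastocysts. Some lineage markers moved in the same comparisons as the germline genes, and their part in those results was not tested. The bESC libraries held POU5F1 at 31989 to 36960 normalized counts and COL1A1, a fibroblast collagen, at 6771 to 8085. COL1A1 was the highest of the 8 fibroblast markers in each bESC library, and the others together summed to 1641 to 2052. Among those, POSTN had at most 2.12 and DCN at most 18.5, whereas COL1A2 had 485 to 607 and THY1 had 588 to 1096.

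Among 9326 genes with a mean of at least 50 in both blastocyst tables, those most like BRDT over the 12 blastocysts, with values centred within each table, were CTSC, a lysosomal protease (Pearson r 0.92), the mitochondrial carrier SLC25A27 (0.92) and FUOM, an enzyme of fucose metabolism (0.87). Those most like SYCP3 were C14H8orf88 (0.94), FAM111B (0.92) and NANP (0.92), and those most like MAEL were DHX8, HECW2 and XPO7 (0.90 each). Between the 7 germline genes that passed the filter in at least 1 blastocyst table, 17 of 21 pairs had an r above 0, with a median of 0.38, from −0.19 for SYCP3 with TDRD1 to 0.89 for RAD21L1 with DAZL. These values describe 12 blastocysts that share treatment groups and libraries between the genes. The genes were picked with their LY changes in view and no share over all gene pairs is given, so nothing is read from these counts. DAZL had 185 and 656 reads in DMSO replicates 1 and 2, 6 in replicate 3 and at most 3 in any other blastocyst. Its r values lean on those DMSO libraries.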

How the data were processed

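Single bovine blastocysts and bESC cultures were profiled by RNA-seq. Per the study's methods and processing notes, the authors trimmed reads with fastp, aligned them with HISAT2 2.0.5 (STAR is also named), used StringTie 1.3.3b, counted with featureCounts 1.5.0-p3 and deposited FPKM values per gene in 3 separately normalized tables. Their columns of fold changes and p-values from DESeq2 1.20.0 were not used. The blastocyst coordinates match RefSeq ARS-UCD2.0, and the bESC build is not given in the sources used here. Multiplied by gene length, every deposited FPKM value was a whole multiple of 1 read per library (100% within 0.02 reads), so whole reads were recovered and scaled to normalized counts. Log2(normalized count + 1) of genes with a mean of at least 10 was fitted with limma 3.58.1 (lmFit, eBayes with trend, R 4.3.3), 1 fit per table, with Benjamini-Hochberg adjustment over all genes tested. Adding 1 understates the change of low genes. The count models planned for raw counts gave way to limma-voom as the count-based alternative, since the unit is FPKM. Calls used the study's threshold, given above beside the first call. The 8 genes and all gene lists were chosen with earlier results of these data known. Named genes of the germline list passed the threshold with a mean of at least 50, at most 5 per direction, or were among the 5 highest by FPKM. Alternatives covered the filter, pseudocounts of 0.5 and 5, scaling, voom, a replicate block, the samples in the fit and leaving out each library. Scripts were tested on simulated data. Values used Python 3.11.15, numpy 2.4.6, pandas 2.3.3, scipy 1.17.1 and matplotlib 3.10.9. No sequences of the 8 genes were analysed here. 1 related gene is not reported here.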

Additional observations from a re-analysis of the deposited data

Results flagged for a closer look

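Between LY from the 16-cell stage and LY from the 2-cell stage, 6 genes of the germline and somatic relatives lists passed the study's threshold in the limma test of the difference itself, none with an adjusted p under 0.05. On the log2 scale, cell16_LY minus cell2_LY, the differences were 1.14 for ASZ1, 1.603 for HENMT1 and −1.42 for REC114 among the germline genes, −1.61 for BRD3, a relative of BRDT, and 1.29 for SMC1A and 1.27 for STAG2 among the somatic cohesin genes. SMC1A and STAG2 are X-linked, and both cell2_LY blastocysts but only 1 of the 2 cell16_LY blastocysts had Y reads. Among blastocysts with Y reads SMC1A was still higher in cell16_LY, by 0.73 (1 against 2 blastocysts, no test). Y reads alone do not sort the libraries by X-linked expression, since cell2_LY replicate 1 had Y reads and 3133 normalized counts of XIST. LY_DMSO replicate 1 likewise had Y reads and 2438 normalized counts of XIST. It is the only control of the second table with Y reads, so the differences there among blastocysts with Y reads rest on it.

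Some genes moved in opposite directions in different comparisons with no overlap between LY and control libraries in each, and these differences between comparisons were not tested. PSMC3IP had a log2 fold change of 1.39 in LY10, −1.01 in cell2_LY and −0.86 in cell16_LY. TRIP13 had 1.47 in LY10 and −0.47 in cell2_LY, and TDRKH had 0.93 in LY10, −1.55 in cell2_LY and −0.56 in cell16_LY. RAD21 had 0.61 in LY10, −0.71 in cell2_LY and −0.0617 in bESC_LY, and SMC1A had 1.82 in LY10 and −1.35 in cell2_LY. The values in cell2_LY and cell16_LY share their 2 control blastocysts.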

How the results depend on the processing

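No log2 fold change reversed a call under any alternative, and 219 of 304 recomputed counts stayed within 1.5 times the reported count. In LY10 the germline genes that fell (10) became 4 with a mean of at least 50, 6 with voom and 6 with log2(FPKM + 1), and ranged from 3 to 20 with 1 blastocyst left out, with 5 without LY10 replicate 1, and those that rose (2) from 2 to 4. Over all genes, 884 rose (553 with log2(FPKM + 1), 666 to 1348 with 1 left out, the highest without DMSO replicate 3) and 1213 fell (2123 without the filter, 607 with a mean of at least 50, 760 with log2(FPKM + 1), 661 without DMSO replicate 2 to 2101 without DMSO replicate 3). In cell2_LY the germline genes that rose (1) became 0 with a mean of at least 50, with log2(FPKM + 1) and without cell2_LY replicate 1 or LY_DMSO replicate 1 (0 to 1), and those that fell (8) became 5 with log2(FPKM + 1) and 4 to 14 with 1 left out, 5 without cell2_LY replicate 1 and 13 without replicate 2. Over all genes 1265 rose (645 with log2(FPKM + 1), 698 without cell2_LY replicate 1 to 1563) and 1211 fell (674 with reads on genes as library size, 853 to 1878 without cell2_LY replicate 2). In cell16_LY the germline genes that rose (0) reached 1 without LY_DMSO replicate 2 (0 to 1), and those that fell (1) became 2 with a mean of at least 50, 0 with reads on genes, voom, log2(FPKM + 1) or only the 2 groups, and 0 to 9 with 1 left out, 0 without either cell2_LY blastocyst or cell16_LY replicate 1. Over all genes 472 rose (235 with log2(FPKM + 1), 176 without cell16_LY replicate 1 to 811 without LY_DMSO replicate 1) and 286 fell (541 without the filter, 186 with a mean of at least 50, 150 with log2(FPKM + 1), 174 to 551 for the same 2 libraries, 185 without LY_DMSO replicate 2). Between the start stages the germline genes higher in cell16_LY (2) became 1 with reads on genes, 5 with quantile normalization and 0 without cell16_LY replicate 1 to 6 without cell2_LY replicate 2, and those lower (1) became 2 without the filter or with only the 2 groups, 0 with voom or log2(FPKM + 1), and 0 to 2 with 1 left out. Over all genes 810 were higher (421 with reads on genes, 520 with log2(FPKM + 1), 408 to 1626 for the same 2 libraries) and 839 lower (1261, 332, and 386 without cell2_LY replicate 1 to 1284 without cell2_LY replicate 2). In bESCs the germline genes that fell (0) became 1 without the filter. Over all genes 6 rose (72 without the filter, 1 with a mean of at least 50, 2 with log2(FPKM + 1), 4 to 30 without bESC_tifx replicate 3) and 6 fell (86, 1, and 5 to 32 without bESC_LY replicate 3). The cause of these changes was not tested. Reads on genes as library size moved the median of all genes to 0.24 in cell2_LY, where 1842 genes rose and 674 fell, and to −0.18 between the start stages. In LY10 quantile normalization gave 1074 genes higher and 879 lower.

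Replicate numbers did not pair the blastocysts. Same-numbered deviations correlated at −0.12, 0.17 and −0.10 in the first table and from −0.23 to 0.12 in the second, and at 0.79 over the 2 bESC numbers, which share only a number in the labels. With the replicate block, 2 germline genes fell in cell16_LY, 4 were higher in cell16_LY than in cell2_LY, and in bESCs 1 rose and 1 fell, with 69 and 77 of all genes. In bESCs 116 of all genes then had a limma adjusted p under 0.05, against 0 without the block. The other counts moved by less than 1.5 times.

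Comparing blastocysts with and without Y reads separately was chosen after seeing the data. Genes under about 4 normalized counts lie below what 3 reads resolve, which limits DAZL in the second table and the lowest STRA8 values.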
